A study of Mus musculus with 16 samples.

Results

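Glutathione is the main small thiol of the cell, and 10 genes that make it, use it or belong to the antioxidant programme of the transcription factor Nrf2 are described here in mouse striatum. They are Nfe2l2, Gclc, Gclm, Gss, Gsr, Gpx1, Gpx4, Hmox1, Nqo1 and Txnrd1, taken by name, and all 10 were found among the 20730 gene names of every library. Each of 8 adult C57BL/6N mice had received a RiboTag virus, an adeno-associated virus that puts Rpl22, a protein of the large ribosomal subunit, with a hemagglutinin tag into astrocytes. In 4 mice, called PMCA mice, a second virus carried hPMCA2w/b, a human plasma membrane pump that moves calcium out of the cell and lowers calcium signals. In the other 4, called control mice, the second virus carried a control protein. RNA of each mouse was sequenced once from the precipitate of the tag (IP), which holds RNA bound to tagged astrocyte ribosomes, and again from the cleared lysate of the whole striatum (input). This gave 16 libraries in 4 groups of 4: PMCA IP, control IP, PMCA input and control input. Both treatments thus carry the tag virus, and the tag was precipitated in both. The labels name no promoter for either virus.

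IP libraries held 48.1 to 55.1 M reads in PMCA mice and 46.8 to 58.5 M reads in control mice. Input libraries held 32.3 to 40.9 M reads in PMCA mice and 33.1 to 40.2 M reads in control mice. Rpl22, the tagged gene, was at 8.11 ± 0.11 log2 CPM (the log2 of read counts scaled to a common library size) in PMCA IP, against 9.80 ± 0.15 in control IP (SD, n = 4 each), and at 6.72 ± 0.09 in PMCA input, against 7.60 ± 0.14 in control input. These reads do not separate the tagged copy from the mouse's own Rpl22, so the amount of tag was not measured. Less tag in PMCA mice, if present, and the pump itself cannot be told apart in this design. The astrocyte identity of the IP was checked with 12 markers, and all 12 were higher in IP than in input in both treatments. All 12 microglial and all 10 endothelial markers were lower in IP. Of 10 neuronal markers, 8 were lower and 1 higher in IP in PMCA mice, and 7 were lower and 2 higher in control mice. Neuronal RNA was reduced but not absent in IP. Its markers summed to 2551 to 2887 CPM in PMCA IP, against 5136 to 5370 CPM in PMCA input. In control mice the sums were 3045 to 4168 CPM in IP, against 5152 to 5578 CPM in input. Oligodendrocyte markers were not depleted: 7 of 10 were higher and 0 lower in IP in PMCA mice, and 4 were higher and 1 lower in control mice, with summed levels of 6456 to 7671 CPM in PMCA IP, against 5396 to 6580 CPM in PMCA input, and 5415 to 11830 CPM in control IP, against 5995 to 6939 CPM in control input. The part of neurons and oligodendrocytes in the IP levels below was not tested. No marker of the 5 cell types checked was at 0 reads in any library.

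Nrf2, the product of Nfe2l2, is held low by Keap1, which hands it to a ubiquitin ligase. Oxidants and electrophiles modify Keap1, and Nrf2 then pairs with small Maf proteins on antioxidant response elements of its target genes. Gclc and Gclm encode the catalytic and modifier subunits of glutamate-cysteine ligase, the rate-limiting enzyme of glutathione synthesis, and Gss encodes glutathione synthetase, which completes it. Gsr encodes the reductase that recycles oxidised glutathione, while Gpx1 and Gpx4 encode selenium-containing peroxidases that spend it on hydrogen peroxide and on lipid hydroperoxides. Hmox1 encodes inducible haem oxygenase, Nqo1 a quinone reductase and Txnrd1 the cytosolic thioredoxin reductase. Astrocytes are known as the main source of glutathione precursors for neurons, and as the brain cells in which Nrf2 is most active.

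Positions are those of the GRCm38.p6 assembly, whose coordinates are those of mm10. Nfe2l2 spans chr2:75675513-75704663, Gclc chr9:77754535-77794489 and Gclm chr3:122245487-122267215. Gpx4 spans chr10:80047166-80056439, Gpx1 chr9:108339080-108340342 and Hmox1 chr8:75093618-75100593. Gss spans chr2:155563181-155592810, Gsr chr8:33653238-33698162, Nqo1 chr8:107388225-107403205 and Txnrd1 chr10:82833951-82897724. Gclm overlaps a long noncoding RNA and a pseudogene, Gss a long noncoding RNA, Gsr a small nucleolar RNA gene and a pseudogene, and Txnrd1 a long noncoding RNA and the protein-coding gene Eid3. Since it is not given whether counting used the strand, the values of these 4 genes are uncertain to that extent. Values of different genes are not compared as levels below, because CPM is not divided by transcript length.

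The core of the antioxidant response element, TGACNNNGC on either strand, was looked for in the 250 bases before each start site, in RefSeq promoter windows of GRCm38.p6. It was present in 10.2% of 32851 windows, belonging to 11.5% of 27025 genes. Windows were given for 7 of the 10 genes, not for Gclc, Gsr and Hmox1, and 3 of the 7 held it: Nfe2l2, Gclm and the second of 3 listed starts of Txnrd1. The more specific sequence TGACTCAGC was in 0.390% of all windows and in none of these 7 genes. The 3 stretches are shown 5′ to 3′ on the strand of the gene, because they place the motif before the regulator itself and before 2 of its known targets. Capitals mark the match, which reads as the reverse complement of the motif in Gclm and Txnrd1.
Nfe2l2, chr2:75704870-75704913, minus strand: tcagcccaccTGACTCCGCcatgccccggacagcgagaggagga
Gclm, chr3:122245398-122245456, plus strand: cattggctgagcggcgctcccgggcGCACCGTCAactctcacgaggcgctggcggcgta
Txnrd1, chr10:82859089-82859147, plus strand: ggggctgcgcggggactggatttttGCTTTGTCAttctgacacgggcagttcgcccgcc
A match of letters is a description of the window and not evidence of binding, and response elements that lie farther from the start are outside it.

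The IP against input comparison asks which of these transcripts were more abundant on astrocyte ribosomes than in the whole striatum. Of the 10 genes, 8 were higher in IP and 1, Gpx1, was lower, in PMCA mice and in control mice alike. All the tests named below are limma fits over all genes tested with Benjamini-Hochberg adjustment, called at an adjusted p under 0.05. At that threshold, 37.4% of all genes tested in PMCA mice were called higher and 39.3% lower. In control mice 39.1% were called higher and 38.4% lower. The median log2 fold of the 10 genes was 0.71 in PMCA mice and 0.88 in control mice, against -0.04 and 0.00 for all genes tested. In bulk samples such as these, a larger share of cells of one type and more RNA per cell cannot be told apart.

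Nfe2l2, the regulator, had 7.10, 7.09, 7.0 and 6.95 log2 CPM in PMCA IP, against 4.71, 4.74, 5.0 and 4.94 in PMCA input. In control mice it had 6.97, 7.18, 7.22 and 7.14 log2 CPM in IP, against 4.77, 4.75, 4.60 and 5.12 in input. Every IP library was thus above every input library by a wide margin. Of the 10 genes, 8 had all 4 IP libraries above all 4 input libraries in PMCA mice and 7 in control mice, where 35.6% and 37.0% of all genes tested did. The log2 fold, IP over input, was 2.18 (SE 0.074, adjusted p = 1.49e-09) in PMCA mice and 2.32 (SE 0.10, adjusted p = 8.36e-09) in control mice, a ratio of 4.55 and 4.99.

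Hmox1, which opens the haem ring, had the highest IP over input fold of the 10. Its levels were 4.99, 4.84, 5.19 and 5.61 log2 CPM in PMCA IP, against 2.65, 2.70, 2.91 and 3.0 in PMCA input. In control mice they were 5.27, 5.71, 6.03 and 5.92 in IP, against 3.20, 2.77, 3.28 and 3.47 in input. The groups did not overlap, with a log2 fold of 2.34 (SE 0.15, adjusted p = 2.08e-07) in PMCA mice and 2.55 (SE 0.18, adjusted p = 2.37e-07) in control mice. Input libraries held at most 493 Hmox1 reads, so its level there rests on fewer reads than that of most of the other genes.

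The subunits of glutamate-cysteine ligase were enriched to different degrees. Gclm, the modifier subunit, had 6.63, 6.54, 6.49 and 6.46 log2 CPM in PMCA IP, against 4.87, 5.0, 4.86 and 4.96 in PMCA input, and 6.66, 6.81, 7.03 and 6.88 in control IP, against 4.93, 5.01, 5.11 and 5.03 in control input. Gclc, the catalytic subunit, had 6.45, 6.49, 6.43 and 6.46 log2 CPM in PMCA IP, against 6.32, 6.36, 6.33 and 6.29 in PMCA input, and 6.77, 6.83, 6.78 and 6.72 in control IP, against 6.38, 6.39, 6.36 and 6.33 in control input. Both subunits had every IP library above every input library of the same treatment, but the gap was wide for Gclm and narrow for Gclc. The log2 fold of Gclm was 1.61 (SE 0.056) in PMCA mice and 1.82 (SE 0.077) in control mice, and that of Gclc was 0.13 (SE 0.042) in PMCA mice and 0.41 (SE 0.047) in control mice, all 4 called, with the highest adjusted p at 0.0132 for Gclc in PMCA mice. Within a mouse, the IP minus input difference of Gclm exceeded that of Gclc by 1.32 to 1.62 log2 units in 8 of 8 mice.

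Gss, the synthetase, had 4.36, 4.35, 4.38 and 4.48 log2 CPM in PMCA IP, against 3.53, 3.61, 3.53 and 3.42 in PMCA input, and its IP libraries also stood above the input libraries in control mice. Its log2 fold was 0.87 (SE 0.066, adjusted p = 6.73e-07) in PMCA mice and 1.01 (SE 0.10, adjusted p = 5.02e-06) in control mice. Gsr, the reductase, was close to even, at 0.20 (SE 0.058, adjusted p = 0.00848) in PMCA mice and 0.24 (SE 0.070, adjusted p = 0.00995) in control mice. In control mice the Gsr libraries overlapped, at 5.68 to 5.99 log2 CPM in IP and 5.57 to 5.69 in input.

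Of the peroxidases, Gpx1 was lower in IP and Gpx4 did not pass the test. Gpx1 had 5.80, 5.74, 5.90 and 5.87 log2 CPM in PMCA IP, against 6.79, 6.64, 6.62 and 6.49 in PMCA input, and 5.88, 6.15, 6.32 and 6.53 in control IP, against 6.73, 6.80, 6.78 and 6.75 in control input. All IP libraries were below all input libraries of the same treatment, as for 35.8% of all genes tested in PMCA mice and 35.3% in control mice. This gave a log2 fold of -0.81 (SE 0.067, adjusted p = 1.38e-06) in PMCA mice and -0.54 (SE 0.11, adjusted p = 0.00113) in control mice. Gpx4 overlapped between the fractions, at 6.92 to 7.24 log2 CPM in PMCA IP, against 6.90 to 7.29 in PMCA input, and 7.27 to 7.52 in control IP, against 7.09 to 7.46 in control input. Its difference did not pass the test in PMCA mice (log2 fold 0.02, 95% interval -0.19 to 0.24, adjusted p = 0.827) or in control mice (0.14, -0.05 to 0.33, adjusted p = 0.166). Without control IP mouse 1, Gpx4 was called higher in control mice, at 0.20. Beside Gpx1, the summed level of the 12 microglial markers was 49.6 to 97.7 CPM in PMCA IP, against 1520 to 1922 CPM in PMCA input, and 27.3 to 42.8 CPM in control IP, against 1157 to 1805 CPM in control input. All 10 endothelial markers and most neuronal markers were lower in IP as well. Between PMCA and control IP, Gpx1 had a log2 fold of -0.39 and the 12 microglial markers a median of 0.85, with 11 positive and 1 negative. The part of any of these cells in the level of Gpx1 was not tested.

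Among the other Nrf2 targets of the group, Nqo1 had 3.98, 4.24, 3.76 and 3.63 log2 CPM in PMCA IP, against 2.48, 2.80, 2.01 and 2.26 in PMCA input, a log2 fold of 1.52 (SE 0.18, adjusted p = 2.08e-05). In control mice it had 4.02, 4.18, 4.05 and 3.55 in IP, against 2.44, 2.31, 2.35 and 1.99 in input, a log2 fold of 1.68 (SE 0.15, adjusted p = 1.46e-06). The fractions did not overlap, although input libraries held only 176 to 308 Nqo1 reads. Txnrd1 was higher in IP by a log2 fold of 0.55 (SE 0.049, adjusted p = 2.57e-06) in PMCA mice and 0.75 (SE 0.074, adjusted p = 4.06e-06) in control mice.

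These folds rest on the scaling that the authors applied to the libraries. When reads were divided by library totals alone, the median of all genes moved to -0.35 in PMCA mice and -0.28 in control mice, and the split of calls to 4294 higher and 8898 lower in PMCA mice (6121 and 6430 with the deposited scaling) and 4493 higher and 8389 lower in control mice (6285 and 6172). Gclc in PMCA mice then became -0.17, Gsr -0.10 in PMCA mice and -0.04 in control mice, and Gpx4 -0.28 in PMCA mice and -0.14 in control mice. With median-of-ratios size factors these values kept their sign. Gpx4 in PMCA mice also turned below 0 with the deposited scaling when 1 of 3 libraries was left out (PMCA IP mouse 1, PMCA input mouse 3 or 4), to as low as -0.0374. By contrast, Nfe2l2, Hmox1, Gclm, Nqo1, Gss and Txnrd1 were higher and Gpx1 lower with the deposited scaling and with total reads.

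**Figure D1:**
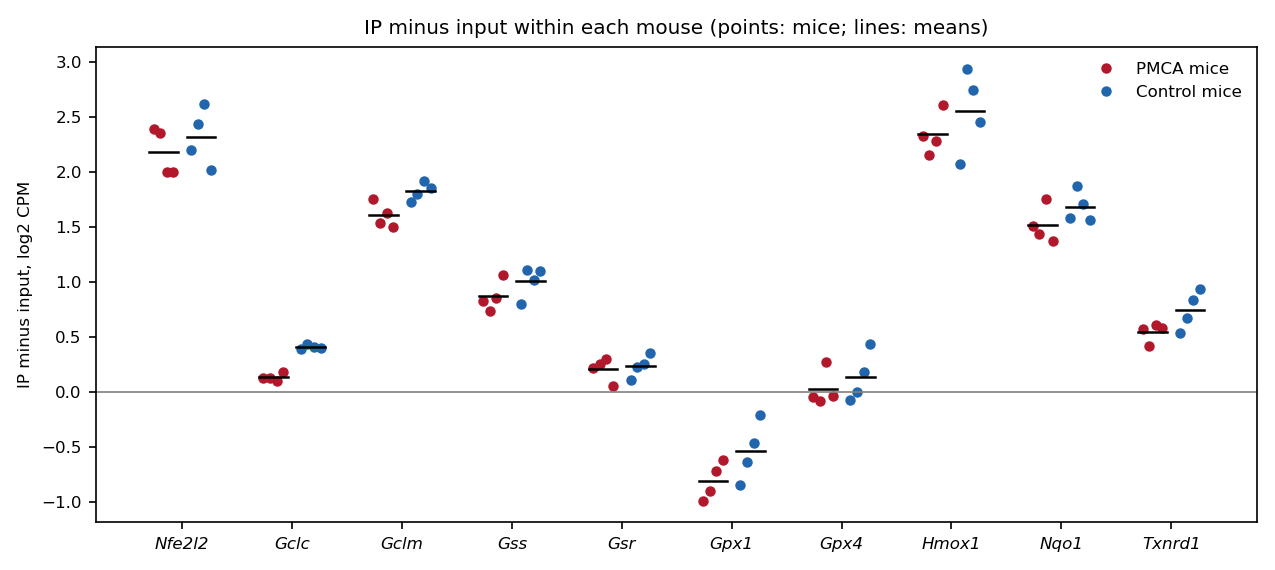
IP minus input of each gene within each mouse, in log2 CPM, with PMCA mice left and control mice right for each gene; points are mice and lines are means of 4. Nfe2l2 and Hmox1 lie between 2.0 and 2.94 in the 8 mice, Gpx1 lies below 0 in all 8, and the Gclc points of PMCA mice (0.10 to 0.18) lie below those of control mice (0.39 to 0.44).

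The PMCA against control comparison in IP asks how the RNA on astrocyte ribosomes differed between PMCA and control mice. Of the 10 genes, 4 were lower in PMCA mice and 0 were higher: Gclc, Gclm, Gpx4 and Gpx1, at 0.762 to 0.805 of their control level. In this comparison 10.1% of all 15748 genes tested were called lower and 9.54% higher. Fitted folds were negative for all 10 genes, with a median log2 fold of -0.28, against -0.01 for all genes tested. Nfe2l2 itself did not pass the test.

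Gclc, whose IP and input values are given above, had its 4 PMCA IP libraries at 6.43 to 6.49 log2 CPM and its 4 control IP libraries at 6.72 to 6.83. The gap between the nearest libraries of the groups was wider than the spread within either group. The log2 fold was -0.31 (95% interval -0.43 to -0.20, SE 0.052, adjusted p = 0.00459), or 0.804 of the control level. Of the 10 genes, Gclc was the one that stayed below the threshold in all 16 alternative settings run, with a log2 fold of -0.33 to -0.30 and an adjusted p between 5.81e-05 and 0.0244.

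Gclm moved by the same amount, with all PMCA IP libraries (6.46 to 6.63 log2 CPM) below all control IP libraries (6.66 to 7.03) but only just at the nearest. Its log2 fold was -0.31 (SE 0.081, adjusted p = 0.0246). Gpx4, the peroxidase that removes lipid hydroperoxides from membranes, had 7.24, 7.12, 7.17 and 6.92 log2 CPM in PMCA IP, against 7.27, 7.46, 7.52 and 7.52 in control IP. These groups too did not overlap, and the log2 fold was -0.33 (SE 0.085, adjusted p = 0.0248). A gene with all 4 PMCA IP libraries below all 4 control IP libraries was not rare, since 14.2% of all genes tested had this.

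Gpx1 overlapped between the groups, with PMCA IP at 5.74 to 5.90 log2 CPM and control IP spread from 5.88 to 6.53. Its log2 fold was -0.39 (SE 0.12, adjusted p = 0.0451). Control IP mouse 1 was the lowest control IP library for 8 of the 10 genes, and it was the lowest for 32.0% of all genes tested. Without that library 6 genes were called lower, Hmox1 and Txnrd1 in addition.

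Hmox1 had the largest fitted fold, at 4.84 to 5.61 log2 CPM in PMCA IP and 5.27 to 6.03 in control IP, but its libraries were also the most scattered. The log2 fold of -0.57 (95% interval -0.995 to -0.152, SE 0.19) missed the threshold at an adjusted p of 0.0582. Txnrd1 missed it as narrowly, with 7.08, 6.95, 7.08 and 7.12 log2 CPM in PMCA IP, against 7.11, 7.25, 7.39 and 7.48 in control IP (log2 fold -0.25, SE 0.084, adjusted p = 0.0611). Both had an unadjusted p under 0.05, as did 6 of the 10 genes, and 5520 of all 15748 genes tested.

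The remaining 4 genes did not pass the test, and their intervals bound the difference. The log2 fold was -0.14 for Gss (95% interval -0.33 to 0.05, adjusted p = 0.260) and -0.11 for Gsr (-0.28 to 0.06, adjusted p = 0.325). For Nfe2l2 it was -0.09 (-0.25 to 0.06, adjusted p = 0.372). Nqo1 was the least precise of the 4, at -0.05 (-0.40 to 0.31, adjusted p = 0.862), with 3.63 to 4.24 log2 CPM in PMCA IP and 3.55 to 4.18 in control IP.

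Leaving out 1 library left 1 to 6 of the 10 genes called lower, and Gclc was among them each time. Without control IP mouse 2, 3 or 4, or without PMCA IP mouse 2 or 3, it was the only one called. The animal numbers in the sample titles fall into a low set (3 control and 2 PMCA mice) and a high set (1 control and 2 PMCA mice), whose meaning the labels do not give. Within the low set the difference was -0.32 for Gclc, -0.25 for Gclm, -0.24 for Gpx4 and -0.35 for Gpx1, and within the high set it was -0.27, -0.40, -0.47 and -0.65 in the same order. With the set as a block, those 4 genes, Hmox1 (-0.67, adjusted p = 0.0222) and Txnrd1 (-0.29, adjusted p = 0.0302) were called lower. Control mouse 4 carries a high number in its title and a low one in its source name. When placed by the source name, 2 genes were called, Gclc (-0.30, adjusted p = 0.0244) and Hmox1 (-0.82, adjusted p = 0.0345), while Gclm (-0.26, adjusted p = 0.125), Gpx4 (-0.26, adjusted p = 0.130) and Gpx1 (-0.45, adjusted p = 0.0880) were not.

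Markers of several cell types moved with the treatment in IP. The summed level of the 12 astrocyte markers was 47660 to 56220 CPM in PMCA IP, against 35590 to 47250 CPM in control IP, and 3 of the 12 were called higher. That sum rests most on Slc1a2, which was not called (log2 fold 0.40, adjusted p = 0.223), nor was Gfap (0.59, adjusted p = 0.0527). Of the 12 folds, 9 were positive and 3 negative, with a median of 0.19. Aldoc, Aqp4, Slc4a4, Gjb6 and Gja1 had folds of 0.07, 0.02, -0.03, -0.06 and -0.07. Neuronal markers summed to 2551 to 2887 CPM in PMCA IP, against 3045 to 4168 CPM in control IP, with 6 of 10 called lower. Microglial markers summed to 49.6 to 97.7 CPM in PMCA IP, against 27.3 to 42.8 CPM in control IP, with 5 of 12 called higher, and endothelial markers to 13.1 to 21.4 CPM, against 9.84 to 12.1 CPM, with 4 of the 9 tested called higher. Of all genes tested, 9.54% were called higher and 10.1% lower. Cx3cr1 (2.22 to 5.19 log2 CPM) and Tmem119 (0.55 to 3.82) were widely spread in PMCA IP and not called. Of the 12 microglial folds 11 were positive, and that of P2ry12 was negative (-0.27, adjusted p = 0.13). No oligodendrocyte marker of 10 was called (6456 to 7671 CPM in PMCA IP, against 5415 to 11830 CPM in control IP). Their part in the differences of the 10 genes, and that of the lower Rpl22, was not tested.

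**Figure D2:**
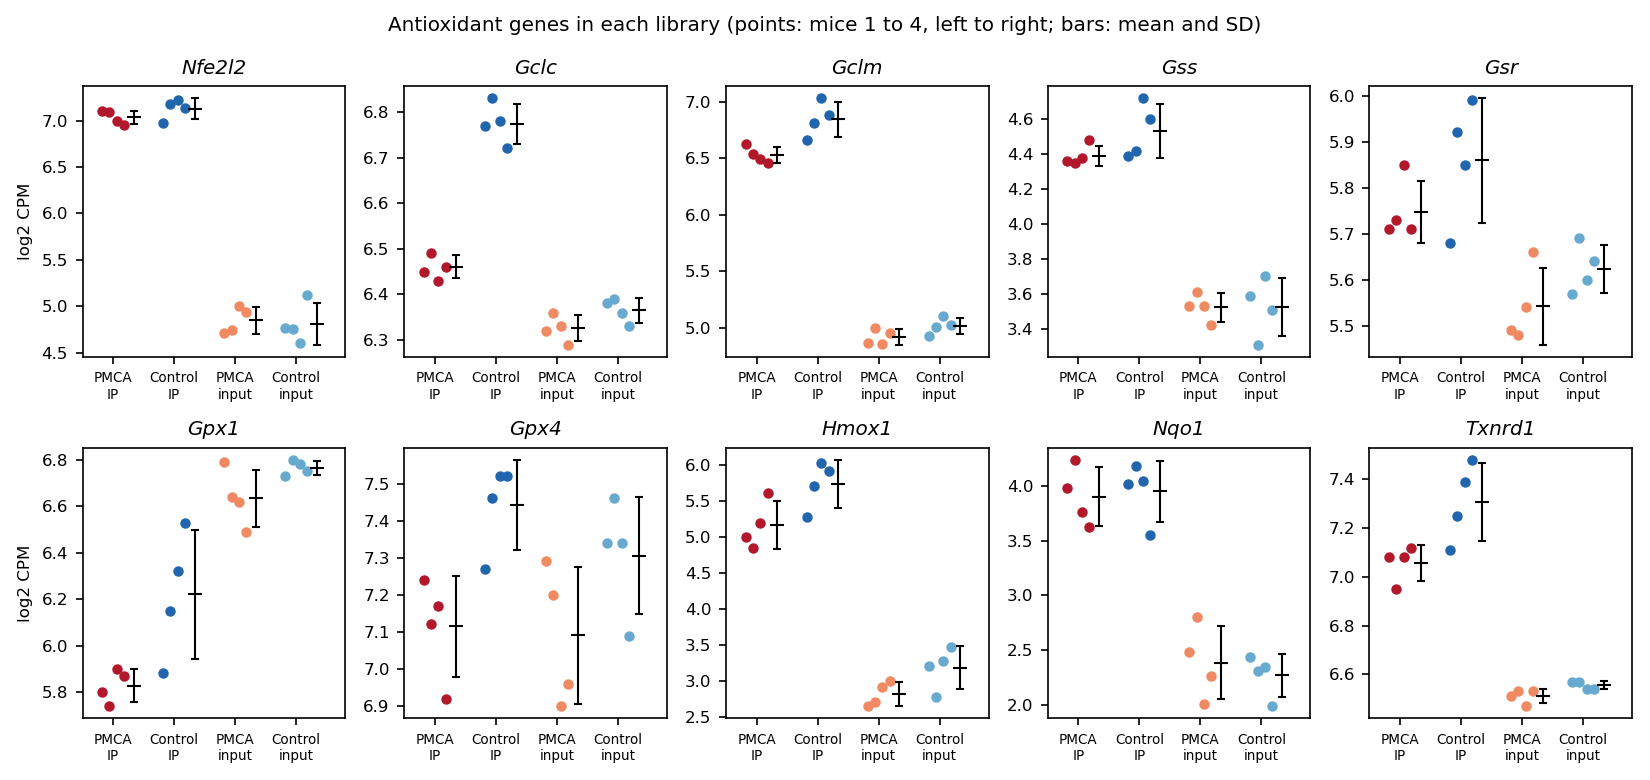
Log2 CPM of each of the 10 genes in every library, by group in the order PMCA IP, control IP, PMCA input and control input; points are mice 1 to 4 and the black mark beside them is the mean with its SD (n = 4). The vertical scale differs between panels. The PMCA IP points of Gclc, Gclm and Gpx4 all lie below the control IP points, and the input groups of 9 genes overlap.

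In input, which holds RNA of all striatal cells, 0 of the 10 genes passed the test in either direction. Few genes did at all in this comparison, 0.362% of 16306 higher and 0.0797% lower. Of the 10 folds, 8 were negative, with a median of -0.06, and 3 genes had an unadjusted p under 0.05, as did 3152 of all 16306 genes tested. The 3 were Hmox1 (log2 fold -0.37, SE 0.14, adjusted p = 0.203), Gpx4 (-0.22, SE 0.094, adjusted p = 0.241) and Gpx1 (-0.13, SE 0.056, adjusted p = 0.240). Hmox1 had 2.65, 2.70, 2.91 and 3.0 log2 CPM in PMCA input, against 3.20, 2.77, 3.28 and 3.47 in control input, so the groups overlapped through control mouse 2. With the set of animal numbers as a block, Hmox1 was called lower in input (-0.45, adjusted p = 0.0333), and with control mouse 4 placed by its source name it was not (-0.50, adjusted p = 0.254).

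Gclc differed little in input, with 6.32, 6.36, 6.33 and 6.29 log2 CPM in PMCA mice, against 6.38, 6.39, 6.36 and 6.33 in control mice. Its log2 fold of -0.04 had a 95% interval of -0.12 to 0.04 (adjusted p = 0.593). Txnrd1 was the one gene whose PMCA input libraries (6.47 to 6.53 log2 CPM) all lay below the control input libraries (6.54 to 6.57), as 4.77% of all genes tested did, and its log2 fold was only -0.05 (SE 0.035, adjusted p = 0.491). For Nfe2l2 the log2 fold was 0.04 (SE 0.11) and for Nqo1 0.12 (SE 0.17).

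**Figure D3:**
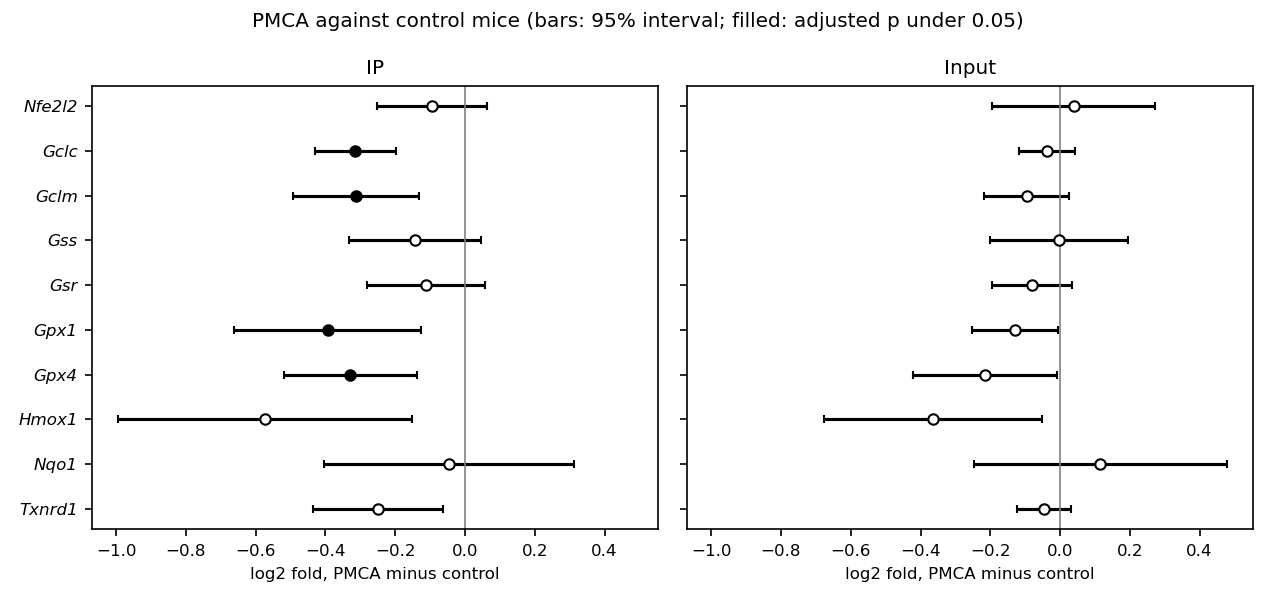
Log2 fold, PMCA over control, of each gene in IP (left) and input (right), with its 95% interval from the limma fit of 4 against 4 libraries; filled points have an adjusted p under 0.05. Gclc, Gclm, Gpx1 and Gpx4 are filled in IP and no gene is in input, and all 10 points lie below 0 in IP.

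Whether the PMCA effect differed between IP and input was tested as an interaction over all 16 libraries. Gclc was the only 1 of the 10 genes called, with a difference of -0.28 (SE 0.056, adjusted p = 0.0225), while 1.06% of all 16673 genes tested were called lower and 0.972% higher. Within a mouse, IP minus input of Gclc was 0.13, 0.13, 0.10 and 0.18 log2 units in PMCA mice, against 0.39, 0.44, 0.41 and 0.40 in control mice. The treatments did not overlap, and the gap between them was wider than the spread within either. How many of all genes separate the treatments in this way was not counted. Without control IP mouse 2 (-0.26) or PMCA input mouse 2 (-0.26) the call was lost, with adjusted p over the 24 alternatives between 0.00761 and 0.0592.

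For Gclm the difference was -0.22 (SE 0.098, adjusted p = 0.278) and for Txnrd1 -0.20 (SE 0.091, adjusted p = 0.275), each with an unadjusted p under 0.05. Gpx4 (-0.11, 95% interval -0.40 to 0.18) and Gpx1 (-0.26, -0.56 to 0.04) were not shown to respond differently in the 2 fractions. All 10 differences were negative, with a median of -0.18 (0.01 for all genes tested). The comparisons share libraries, so this sign is not independent of the one in IP. Negative differences were not particular to these genes. All 10 neuronal markers had them too, with a median of -0.37 and 2 called lower. Of the 12 astrocyte markers, 8 differences were positive and 4 negative, with 0 called. The part of neuronal RNA in the differences of the 10 genes was not tested.

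The wider pathway was followed in 9 lists with 91 further genes. In IP, 88 were tested between PMCA and control mice, where 9.54% of all genes tested were called higher and 10.1% lower. Of the 88, 3 were higher and 20 lower, with a median log2 fold of -0.10 (-0.01 for all genes tested). The other glutathione peroxidases, transferases and glutaredoxins held 8 of these 20, out of 24 tested. Those with the largest folds were the secreted peroxidase Gpx3 (-0.53, SE 0.12, adjusted p = 0.0141), the glutaredoxin Glrx3 (-0.53, SE 0.10, adjusted p = 0.00777) and the microsomal transferase Mgst3 (-0.46, SE 0.083, adjusted p = 0.00645). Of the 7 NADPH supply genes 2 were lower, one of them transaldolase, Taldo1 (-0.46, SE 0.13, adjusted p = 0.0308), of the pentose phosphate pathway.

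The largest fall among the pathway genes was in Cbr3, a carbonyl reductase, at 5.08 to 5.34 log2 CPM in PMCA IP, against 5.80 to 6.12 in control IP (log2 fold -0.79, SE 0.088, adjusted p = 0.00146). Ftl1, the ferritin light chain, was lower by a log2 fold of -0.47 (SE 0.13, adjusted p = 0.0299), one of 3 of 8 haem and iron genes called. The extracellular superoxide dismutase Sod3 went the other way, with 5.09 to 5.72 log2 CPM in PMCA IP, against 4.02 to 4.62 in control IP (log2 fold 1.04, SE 0.16, adjusted p = 0.00365). Bach2, a transcriptional repressor related to the Nrf2 competitor Bach1, was higher at 0.59 (SE 0.11, adjusted p = 0.00778), and Cbs, which makes cystathionine on the way to cysteine, at 0.37 (SE 0.097, adjusted p = 0.0268).

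Keap1, the sensor that restrains Nrf2, did not pass the test in IP, at 6.22 to 6.33 log2 CPM in PMCA mice and 6.12 to 6.30 in control mice (log2 fold 0.05, 95% interval -0.09 to 0.19, adjusted p = 0.588). Nor did Slc7a11, the cystine-glutamate exchanger that brings in cystine for glutathione, at 8.52 to 8.78 log2 CPM in PMCA IP and 8.18 to 8.77 in control IP (log2 fold 0.09, 95% interval -0.19 to 0.37, adjusted p = 0.664). No metallothionein of 3 was called. In input, 0 of the 88 pathway genes tested passed the adjusted threshold by limma, while 33 had an unadjusted p under 0.05, as did 3152 of all 16306 genes tested. For the difference between fractions 0 of 89 passed and 19 had an unadjusted p under 0.05, as did 2711 of all 16673 genes tested.

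**Figure D4:**
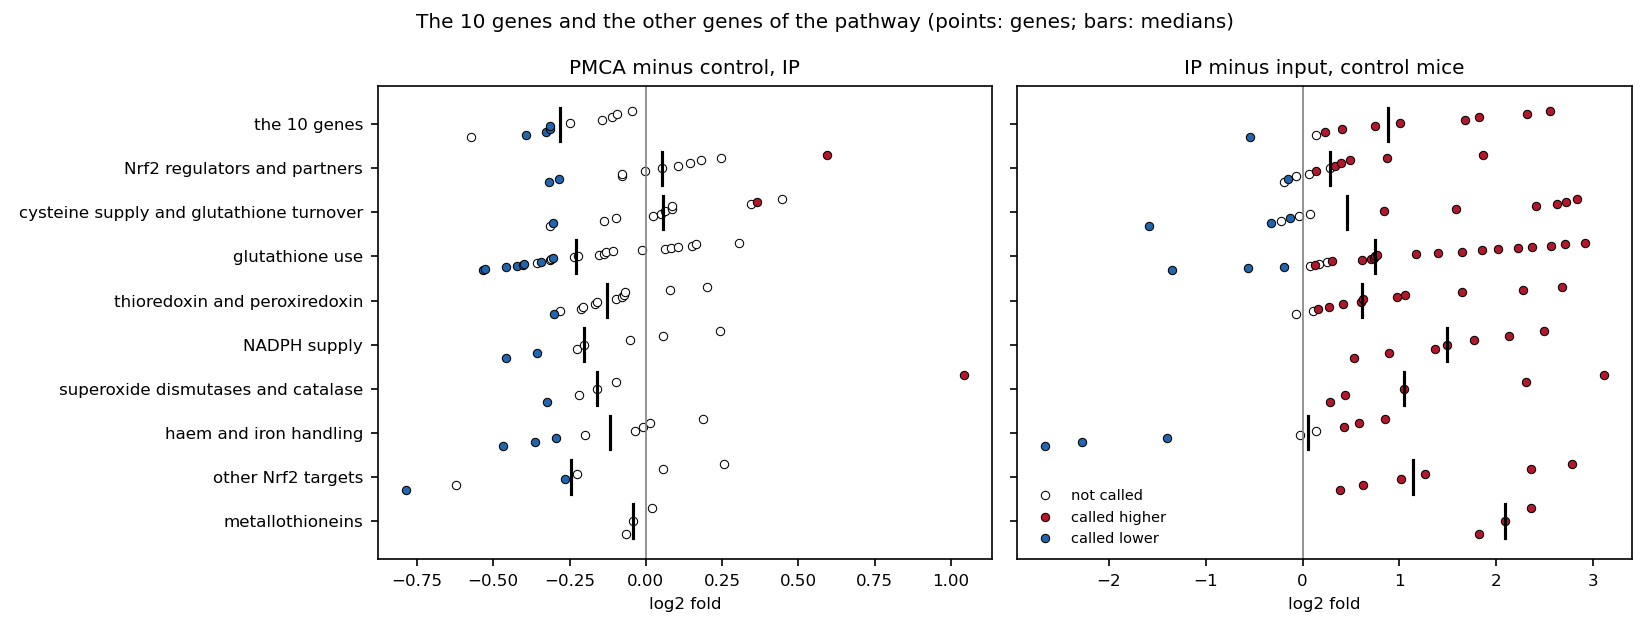
Log2 folds of the 10 genes and of the tested genes of the 9 pathway lists, PMCA over control in IP (left) and IP over input in control mice (right); each point is a gene, filled red where called higher and blue where called lower, and the vertical bar is the median of the list. "Glutathione use" stands for the other glutathione peroxidases, transferases and glutaredoxins. Sod3 stands farthest right in the left panel at 1.04, and Slc40a1 farthest left in the right panel at -2.65.

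Between IP and input, 37.4% of all genes tested were called higher and 39.3% lower in PMCA mice, and 39.1% and 38.4% in control mice. Of 87 pathway genes tested, 61 were higher and 14 lower in PMCA mice, and 63 were higher and 10 lower of 87 in control mice. Sod3 had the highest fold in both, 3.70 (SE 0.14, adjusted p = 4.01e-09) in PMCA mice and 3.11 (SE 0.16, adjusted p = 2.46e-08) in control mice. The transferase Gstm1 followed at 2.99 in PMCA mice and 2.92 in control mice, and Cbs at 2.96 and 2.84. Slc7a11 was higher in IP by 2.56 in PMCA mice and 2.72 in control mice. Each of the 7 NADPH supply genes, 5 superoxide dismutase and catalase genes and 3 metallothioneins was called higher in IP in both treatments.

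The 8 haem and iron genes were divided between the fractions, with 3 higher and 4 lower in IP in PMCA mice and 3 higher and 3 lower in control mice. Those with the largest folds were lower in IP. Slc40a1, the iron exporter ferroportin, was lower in IP by a log2 fold of -2.61 (SE 0.11, adjusted p = 5.12e-09) in PMCA mice and -2.65 (SE 0.20, adjusted p = 4.3e-07) in control mice. The ferritin heavy chain Fth1 was lower at -2.15 in PMCA mice and -2.28 in control mice, and Ftl1 at -1.77 and -1.40. Keap1 differed little between the fractions, at -0.04 (SE 0.047, adjusted p = 0.469) in PMCA mice and -0.15 (SE 0.057, adjusted p = 0.0292) in control mice.

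Over the 16 libraries, the pattern of Nfe2l2 was most like that of Slc12a4, Cyfip1, Gna13, Add3 and Plcd4, with a Pearson r of 0.997 to 0.998 among 16668 genes. The 16 values share the split into IP and input, which sets most of this likeness. Of the 9 other antioxidant genes, Gclm came closest (r = 0.985, rank 854), followed by Hmox1 (0.967), Gss (0.963), Txnrd1 (0.942) and Nqo1 (0.940). Gsr (0.792) and Gclc (0.770) were looser, Gpx4 showed almost no relation (0.188), and Gpx1 ran opposite (-0.846).

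With the group means taken out, the 45 pairs among the 10 genes had a median r of 0.39 over the 8 IP libraries, with 33 pairs above 0, and of 0.03 over the 8 input libraries, with 24 pairs above 0. The closest IP pair was Gpx1 and Txnrd1 (r = 0.958), and Nfe2l2 and Gclm reached 0.872. Negative pairs in IP included Nqo1 with Txnrd1 (-0.697) and Gclc with Txnrd1 (-0.556), while Gclc and Nqo1 varied together (0.799). These are descriptions of 8 libraries each, which also share their library preparation and depth. Pairs among all genes were not computed, so whether the 10 genes vary together more than other genes was not tested.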

How the data were processed

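RNA of 8 striata was sequenced as 16 libraries, grouped by the labelled treatment and fraction. Per the labels' protocols, libraries were stranded and depleted of ribosomal RNA. Per the submitters' processing notes, STAR, HTSeq, edgeR and limma were used with mm10; no source used here gives their settings. The authors deposited log2 CPM, with scaling factors and a prior count. Undoing both gave whole reads for 100.0% of values.

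The log2 CPM were fitted with limma 3.58.1 (R 4.3.3, mean-variance trend, two-sided, Benjamini-Hochberg over all genes tested, threshold 0.05), after a test on simulated data. Genes needed 10 reads in 4 libraries and 15 in all. Each comparison used its own 8 libraries, and the difference all 16. These main fits held no term for the animal, so IP and input of a mouse were not paired in them. IP and input of a mouse share its animal number in the labels, and their deviations from the group means correlated at 0.114 to 0.327 over 16669 genes in 8 pairs, against -0.195 to 0.078 in 24 other pairs. All 10 genes were named, as were Keap1, Slc7a11, Rpl22, up to 6 pathway genes per direction with the largest called folds, and the 5 genes most like Nfe2l2. Genes, lists and tests were chosen with earlier results of these data known. Alternatives covered scaling, weights, filter, prior count, left-out libraries, animal-number sets and the animal as a block.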

Additional observations from a re-analysis of the deposited data

Results flagged for a closer look

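Gclc is listed because its PMCA effect differed between the fractions: the log2 fold in IP minus that in input was -0.28 (limma, adjusted p = 0.0225). Its IP minus input was 0.10 to 0.18 in 4 of 4 PMCA mice and 0.39 to 0.44 in 4 of 4 control mice. The share of all genes with such a separation was not counted.

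Among 40 sets of 4 libraries (10 genes in 4 groups), 2 held a library far from its group, and chance alone gives about 1 in 20. Gss in PMCA IP mouse 4 was at 4.48 log2 CPM, with the nearest other PMCA IP library at 4.38. Gsr in PMCA IP mouse 3 was at 5.85 log2 CPM, with the nearest at 5.73. Neither gene was called between PMCA and control IP, with or without these libraries.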

How the results depend on the processing

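Of the single-gene values of the 10 genes recomputed under the alternatives, 806 kept their direction and their side of the threshold, 27 turned direction, 25 lost a call and 12 gained one. Of the values that turned direction, those called as reported were Gclc in PMCA mice and Gsr in both treatments, between IP and input with total reads.

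PMCA against control in IP: the count of the 10 genes called lower (4) became 2 with no filter on low values and 2 with the set of animal numbers as a block and control mouse 4 placed by source name, and 1 to 6 when 1 library was left out. Hmox1 and Txnrd1 gained a call with total reads, with the set block by title and with all 16 libraries in 1 fit. Gpx1 lost its call with median-of-ratios size factors. Pathway genes called higher (3) became 5 with all 16 libraries in 1 fit and 2 to 7 when 1 library was left out. Those called lower (20) became 9 with the set block by source name and 13 to 24 when 1 library was left out. Nqo1 (-0.05) became 0.0709 with the set block and 0.163 with control mouse 4 by source name, and ranged from -0.180 to 0.0444 without 1 library.

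PMCA against control in input: with the set block, 1 of the 10 genes (Hmox1), 2 higher and 4 lower pathway genes were called, where 0 were otherwise. Without 1 library the pathway genes called were 0 to 4 higher and 0 to 11 lower, the upper ends without control input mouse 4. Nfe2l2 (0.04) became -0.0412 with the set block and -0.0844 by source name, with -0.0322 to 0.143 without 1 library. Gss (0.00) became 0.0082 with total reads, 0.0016 with median-of-ratios size factors, 0.0133 with the set block and 0.0457 by source name, with -0.0757 to 0.0545 without 1 library. Nqo1 (0.12) ranged from -0.0227 to 0.241 without 1 library.

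IP against input: with total reads, Gclc in PMCA mice became -0.17, Gsr -0.10 in PMCA mice and -0.0405 in control mice, and Gpx4 -0.28 in PMCA mice and -0.14 in control mice, since this setting leaves out the scaling factors that separate the fractions. With it 3 of the 10 genes were called lower in PMCA mice (otherwise 1), and 21 pathway genes in control mice (otherwise 10). Without 1 library, pathway genes called lower were 9 to 12 in PMCA mice and 6 to 10 in control mice, and Gpx4 in PMCA mice ranged from -0.0374 to 0.0919. In control mice 8 to 9 of the 10 genes were then called higher, with Gpx4 gaining a call without control IP mouse 1.

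Difference between fractions: pathway genes called lower (0) became 1 with total reads, 3 with the set block, 1 by source name and 2 with the animal as replicate block, and 0 to 2 without 1 library. The 10 genes called lower were 0 to 1 without 1 library, and Gsr (-0.03) ranged from -0.0916 to 0.0139. The replicate block changed no call of the 10 genes.

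Over all genes, calls between PMCA and control IP (3088) became 4691 with all 16 libraries in 1 fit, 1699 with the set block by source name and 1702 to 3606 without 1 library. In input (72) they became 868 with the set block, 32 by source name, 27 with no filter, 47 in the 16-library fit and 4 to 1352 without 1 library, the most without control input mouse 4. For the difference (339) they became 732 with the replicate block, 549 with the set block and 112 to 779 without 1 library. The block with control mouse 4 by source name could not be fitted within control mice, whose animals then all fall in 1 set. The causes were not tested. Nqo1 and Hmox1, with under 500 reads in each input library, have the widest intervals.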
